A study of Mus musculus with 6 samples.

Results

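The 33 genes described here encode the proteins of the complement system and the collectins, lectins that can set complement going. They were taken by symbol from a list that covers the starting proteins, proteases, terminal components, regulators and receptors, and the rule that picks them uses symbols and no measured value. All 33 were found among the 56305 genes of the deposited table. Expression was measured by polyA RNA-seq of whole liver in 3 WT and 3 Vps15LKO male mice aged 5 weeks, fed ad libitum and killed at ZT6, that is 6 h after lights on, with 1 library for each liver. Vps15LKO mice are AlbCre+;Vps15 f/f, so that Cre driven by the albumin promoter, which is active in hepatocytes and their precursors, chronically deletes Vps15, the regulatory subunit of class 3 PI3K. The labels call the controls WT, and their Cre and floxed alleles are not given in the sources used here.

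Complement is a chain of plasma proteases that is started by antibody-bound C1q (the classical pathway), by collectins and ficolins bound to sugars (the lectin pathway) or by slow turnover of C3 that is amplified on surfaces (the alternative pathway). The 3 routes meet at the cleavage of C3, after which C5 to C9 assemble into a pore in the target membrane, and soluble and membrane-bound regulators hold the chain in check on host cells. Hepatocytes secrete most of the circulating components, whereas C1q and properdin come mainly from myeloid cells, which also carry the receptors for the fragments C3a and C5a.

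The libraries held between 16137093 and 18110223 reads on genes. Values are normalized counts, in which the reads of a library are divided by its size factor, and the size factors were 0.742 to 0.801 in WT and 1.23 to 1.41 in Vps15LKO. Scaling every library to the same total instead shifted the median gene upwards by 0.72 on the log2 scale, so values under both scalings are given for the members whose call depends on them. Pik3r4, which encodes Vps15, was at 508, 573 and 460 normalized counts in WT and at 341, 362 and 355 in Vps15LKO livers, a log2 fold change of -0.54 that became 0.19 under total-read scaling. The reads were not counted for the floxed part apart from the rest of the gene, so this is a weak check of the labels. A gene was called when limma gave a Benjamini-Hochberg adjusted p under 0.05 over the 15430 genes tested and a fold of at least 1.2.

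Of the 33 complement and collectin genes, 32 passed the filter on low values and 29 of these were called, 8 higher and 21 lower in Vps15LKO liver. Only Cfd was not tested, and C5ar1 passed the filter through the Vps15LKO livers alone, so that its call was in part set by the filter and 7 members were called higher when all 6 livers had to pass. The called share was 90.6% of the members tested against 66.5% of all genes tested. Members called higher made up 25% against 33.5% of all genes, and members called lower 65.6% against 33%. In 30 members the 3 WT and the 3 Vps15LKO livers did not overlap (93.8% against 73.2% of all genes). The median log2 fold change was -0.84 over the 32 members and -0.02 over all genes tested.

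The calls were repeated under other scalings, of which total-read scaling moves the whole table upwards, which adds to higher calls and takes from lower ones by its construction. Under total-read scaling 11 members were called higher and 13 lower, where 66.7% of all genes were called higher and 11.1% lower. Quantile normalization gave the same counts of 11 and 13 members, against 30.4% and 37.6% of all genes. All 8 members called higher kept that call under both. Of the 21 called lower, 11 were lower under both: C1ra, Mbl1, Mbl2, Masp2, Cd59a and the 6 terminal components. At a fold of at least 2, 7 members were called higher and 13 lower, against 20.9% and 12.7% of all genes.

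**Figure D1:**
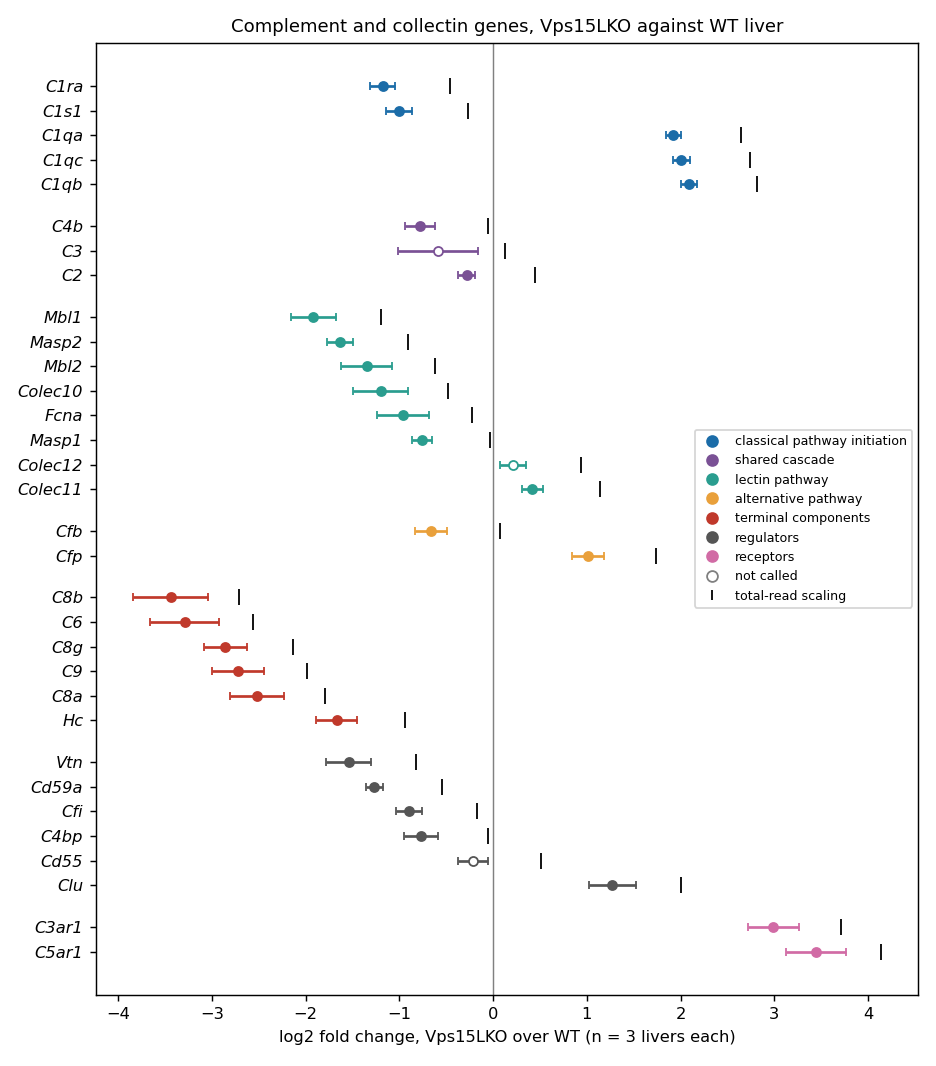
Log2 fold change of the 32 tested members in Vps15LKO over WT liver, with points and bars for the limma estimate and its SE, open points for members that were not called, and black ticks for total-read scaling. The 6 terminal components lie between -3.44 and -1.67 and stay below 0 under total-read scaling, the 3 C1q chains and both receptors lie above 1.9 under either scaling, and the ticks of C2, C3, Cfb and Cd55 lie on the other side of 0 from their points.

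RefSeq promoters of build GRCm38.p6, from 250 bases before to 50 bases after the start, were matched for 24 of the 33 members. They were searched on both strands for the 6-letter E-box CACGTG, which Bmal1 with Clock can bind, and none of the 24 held it, against 8.09% of all 27025 genes with a promoter in the table. The HNF1 half-site GTTAAT, named for a transcription factor of hepatocytes, was found in 8 of the 24 (33.3%), against 8.24% of all genes. TTGCNNAA, letters bound by C/EBP factors, was found in 4 members (C1ra, C1s1, C3 and C9, 16.7% against 12.2%). TTCNNNGAA, letters bound by STAT factors, was found in 5 (C1ra, C8a, Colec11, Masp2 and Vtn, 20.8% against 9.55%). GAGGAAGT, letters bound by the myeloid factor PU.1, was found in 1 member, C1qc, against 3.69% of all genes. Such matches describe the letters of these windows, and no binding was measured for them here.

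The windows below, of at most 60 bases, show each half-site that lies before the start, on the strand of the gene with the half-site in capitals on whichever strand it was read, to let the terminal components be compared with the other members that hold it. The eighth member, Cd55, has its match after the start. The last line shows the letters of PU.1 in C1qc, 195 bases before the start.
C8a, chr4:104876473-104876532, minus strand: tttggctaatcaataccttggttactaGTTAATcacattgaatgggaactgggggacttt
C8b, chr4:104766084-104766143, plus strand: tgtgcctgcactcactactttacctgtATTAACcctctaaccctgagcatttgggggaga
Hc, chr2:35061454-35061513, minus strand: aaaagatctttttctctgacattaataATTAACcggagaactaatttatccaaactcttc
Vtn, chr11:78498981-78499040, plus strand: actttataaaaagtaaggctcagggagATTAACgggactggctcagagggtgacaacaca
C4bp, chr1:130661650-130661709, minus strand: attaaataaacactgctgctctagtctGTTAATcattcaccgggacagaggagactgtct
C1ra, chr6:124512434-124512493, plus strand: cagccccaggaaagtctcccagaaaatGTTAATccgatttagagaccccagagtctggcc
Cfp, chrX:20931556-20931600, minus strand: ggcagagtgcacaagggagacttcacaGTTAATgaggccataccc
C1qc, chr4:136893077-136893136, minus strand: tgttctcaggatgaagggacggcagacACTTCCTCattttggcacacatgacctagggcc
Of the 8 members with a half-site, 6 were called lower, Cfp was called higher and Cd55 was not called, where 15 of all 24 members with a promoter were called lower and 6 higher. Its first letter lay 64 to 206 bases before the start in the 6 members called lower, and 18 bases before it in Cfp.

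The largest falls were in the terminal components, the proteins that form the membrane pore. All 6 were called lower, with a median log2 fold change of -2.79 and a range from -3.44 to -1.67, and all 6 were also called lower under total-read scaling and under quantile normalization. Hc, which encodes C5 and whose product opens the assembly of the pore, was at 17740, 19329 and 22380 normalized counts in WT and at 6238, 8444 and 4559 in Vps15LKO livers, a 3.09-fold lower mean. C6, the first protein to join C5b, was at 3192, 3188 and 6001 in WT and at 374, 700 and 250 in Vps15LKO livers, 9.35-fold lower. The groups did not overlap for either gene, although WT liver 3 held almost as many C6 counts as the other two WT livers together.

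C8 is built from 3 chains, of which C8a and C8b belong to the pore-forming family and C8g encodes a lipocalin. C8a, on chromosome 4 at 104815679 to 104876398, was at 14637, 14327 and 19312 normalized counts in WT and at 2562, 4462 and 1891 in Vps15LKO livers. Its neighbour C8b, 11130 bases away and on the other strand, was at 8521, 8544 and 14681 in WT and at 818, 1842 and 556 in Vps15LKO livers. C8b had the largest fall of all 33 genes by the fitted fold (log2 fold change -3.44, SE 0.40, adjusted p = 0.0001 in limma), and C8a fell by 2.52 on the log2 scale (SE 0.29, adjusted p = 8.7e-05 in limma). C8g was at 4872, 4021 and 4203 in WT and at 561, 892 and 429 in Vps15LKO livers, 6.96-fold lower. C9, which polymerizes into the ring of the pore, was at 11851, 11678 and 18197 in WT and at 2111, 3042 and 1380 in Vps15LKO livers, 6.39-fold lower. For all 3 chains of C8 and for C9 every WT liver was above every Vps15LKO liver. Among the Vps15LKO livers, liver 2 was the highest and liver 3 the lowest for each of the 6 terminal components.

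Added up, the 6 terminal components made up 0.258% to 0.39% of each WT library and 0.071% to 0.132% of each Vps15LKO library by reads. They amounted to 26.3% to 45.1% of the C3 count in WT and to 8.49% to 11.9% in Vps15LKO livers, a ratio within each library that scaling by 1 factor for each library leaves as it is. C7, which stands between C6 and C8 in the pore and is not one of the 33 genes, was near the filter, with 17.5 to 25 normalized counts in the WT livers against 31.6 to 57.3 in the Vps15LKO livers. It was called higher by limma (log2 fold change 0.94, adjusted p = 0.016), a call that was lost without Vps15LKO liver 3, where the log2 fold change was 0.71, and under quantile normalization, where it was 0.16.

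Hepatocyte markers moved with these genes. Of 10 markers listed 9 were matched and 8 of them were called lower, with a median log2 fold change of -1.86 over the 9. Alb was not called by limma, where its log2 SE of 1.38 was moderated towards the trend over genes, while edgeR gave it an adjusted p of 0.0075. Under total-read scaling the median was -1.13 with 8 called lower, and under quantile normalization 6 were called lower. The summed level of the markers was 2785678 to 3332127 normalized counts in WT against 800490 to 1229095 in Vps15LKO livers. In whole liver, fewer cells of a type and less RNA per cell cannot be told apart. The part of the hepatocyte share in the lower members was not tested.

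**Figure D2:**
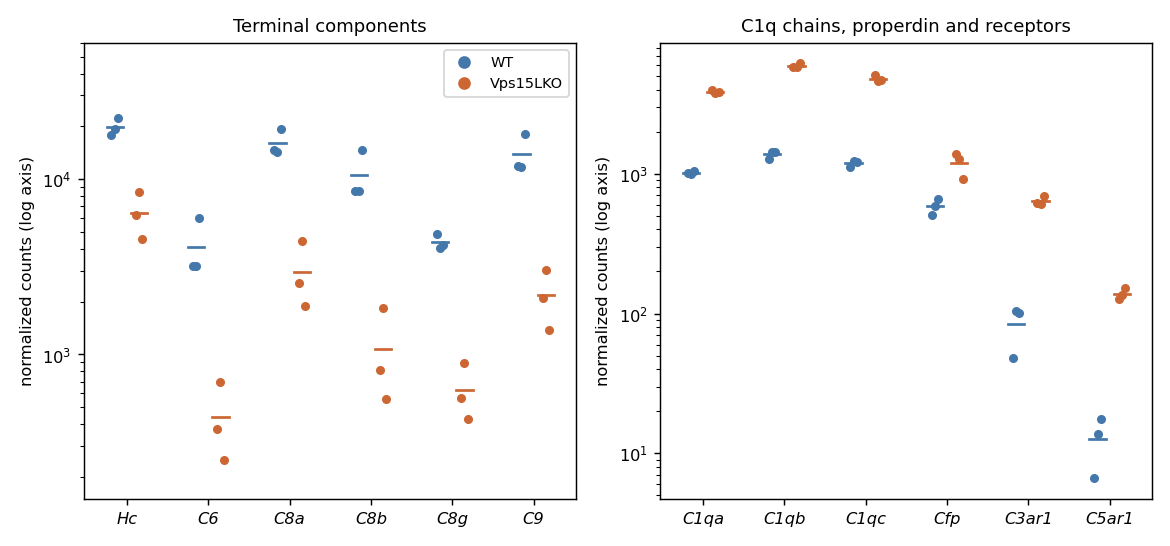
Normalized counts on a log axis for the 6 terminal components (left) and for the C1q chains, properdin and the receptors C3ar1 and C5ar1 (right), with 1 point for each liver, WT in blue and Vps15LKO in orange, and lines at the group means. Every terminal component has its 3 Vps15LKO livers below its 3 WT livers, and every gene on the right has them above.

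The genes that start the classical pathway split by protein. C1q is a hexamer of triple strands, each made of 1 chain from C1qa, C1qb and C1qc, and these genes lie side by side on the minus strand of chromosome 4 with gaps of 3616 bases between C1qb and C1qc and 2851 bases between C1qc and C1qa. C1qa was at 1009, 998 and 1050 normalized counts in WT and at 3981, 3762 and 3836 in Vps15LKO livers. C1qb was at 1281, 1439 and 1440 in WT and at 5800, 5772 and 6168 in Vps15LKO livers, and C1qc was at 1115, 1235 and 1219 in WT and at 5094, 4599 and 4730. The 3 chains rose 3.79-fold, 4.26-fold and 4.04-fold, with limma adjusted p-values of 7.6e-07, 9.7e-07 and 1e-06, and no group overlapped. The SD among the Vps15LKO livers was 112 for C1qa, 221 for C1qb and 256 for C1qc, small beside the differences of the means.

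C1ra and C1s1, the serine proteases bound to C1q, went the other way. C1ra was at 6894, 7421 and 7256 normalized counts in WT and at 3043, 3714 and 2799 in Vps15LKO livers, 2.26-fold lower (limma adjusted p = 6e-05). C1s1 was at 7785, 7959 and 7903 in WT and at 4054, 4659 and 3265, 1.97-fold lower (limma adjusted p = 0.00028), and it was not called under quantile normalization, where its log2 fold change was -0.25. The groups did not overlap for either protease. An antisense gene, Gm16567, shares 576 exon bases with C1s1 and held 30.6% to 33.5% of its count in every liver, and whether the counting used strand is not given in the sources used here.

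C1qb was set beside 2 macrophage markers in a ratio. The log2 ratio of C1qb to Csf1r, the receptor that macrophages need, was -0.14, -0.26 and -0.09 in WT and 0.35, 0.34 and 0.74 in Vps15LKO livers, a difference of 0.64 (exact two-sided permutation p = 0.1, the smallest that 3 against 3 livers allow). For C1qb to the Kupffer cell marker Clec4f the log2 difference was 1.70, again with no overlap. Of 8 general macrophage markers 7 were called higher and 1 lower, with a summed level of 5629 to 7538 normalized counts in the WT and 20687 to 21551 in the Vps15LKO livers. Among the general markers the folds of Csf1r (2.74) and Adgre1 (2.77) were smaller than that of C1qb, and those of Lyz2, Fcgr1, Ctss, Cd68 and Cd14 were larger, from 5.38 to 29.8. The 6 markers of recruited or lipid-associated macrophages were all called higher, from a sum of 887 to 1001 in WT to 17567 to 30114 in Vps15LKO livers, with folds of 8.69 to 418. Trem2 and Gpnmb passed the filter through the Vps15LKO livers alone. Itgax reached 20 normalized counts in WT liver 1 but in no other WT liver, so its call was also in part set by the filter. The Kupffer cell list was mixed, with 2 of 6 called higher, Cd163 lower and a sum of 4095 to 4563 against 6021 to 9960. The part of these cells in the C1q result was not tested.

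Both receptors for the small fragments that complement cleavage releases were higher in every Vps15LKO liver than in any WT liver. C3ar1, the receptor of C3a, was at 47.7, 105 and 101 normalized counts in WT and at 622, 609 and 699 in Vps15LKO livers, 7.6-fold higher (limma adjusted p = 2.7e-05). C5ar1, the receptor of C5a, was at 6.63, 13.7 and 17.5 in WT, which rest on 5, 11 and 13 reads, and at 128, 136 and 153 in Vps15LKO livers. Its mean was 11-fold higher, given as a description because C5ar1 passed the filter only through the group in which it is high. Neutrophil markers moved alongside. The 6 listed went from a sum of 67.5 to 79.6 in WT to 433 to 502 in Vps15LKO livers. Of the 4 that were tested and called higher, S100a8, S100a9 and Mpo passed the filter through the Vps15LKO livers alone, and Ly6g and Mpo were at 0 in all 3 WT livers, which allows up to 3 reads in each. Their part in the receptor counts, and that of the macrophages, was not tested.

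In the alternative pathway, Cfp was called higher and Cfb lower, the latter with a direction that turned under 2 of the other scalings. Cfp encodes properdin, which steadies the C3 convertase on a surface, and was at 509, 593 and 661 normalized counts in WT and at 1388, 1284 and 920 in Vps15LKO livers, 2.04-fold higher with no overlap (limma adjusted p = 0.00067). Cfb encodes factor B, the protease of that convertase, and was at 20461, 19611 and 19719 in WT and at 13203, 14734 and 10367 in Vps15LKO livers. Cfb was called lower by limma (log2 fold change -0.66, SE 0.17, adjusted p = 0.0075), but its log2 fold change was 0.07 under total-read scaling and 0.49, called higher, under quantile normalization. Cfd encodes factor D, also called adipsin, which cleaves factor B and is made mostly by fat cells, and was at 1.33, 8.74 and 28.3 in WT and at 2.29, 10.5 and 0.707 in Vps15LKO livers, which overlap. Adipoq, a fat cell marker, was at 1.33, 5 and 17.5 in WT and at 0, 3.24 and 0 in Vps15LKO livers, so both genes were highest in WT liver 3 among the WT livers. Of the other adipocyte markers Plin1 and Lep stayed below the filter, Lep at 0 in all Vps15LKO livers, while Cidec was called higher, from 33.1, 56.2 and 78.2 in WT to 473, 558 and 283 in Vps15LKO livers. The part of attached fat in the Cfd values was not tested.

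For the 3 genes shared between pathways, C3, C4b and C2, the direction or the call depended on the scaling. C3, the hub of all routes, had the highest level per kb of exon of the 33 genes in WT and was at 197187, 231852 and 187876 normalized counts there against 143169, 163333 and 106784 in Vps15LKO livers. The groups did not overlap, but C3 was not called by limma (log2 fold change -0.59, SE 0.43, adjusted p = 0.25), and its log2 fold change was 0.13 under total-read scaling. Its share of all reads was 0.836% to 1.02% in WT and 0.837% to 1.11% in Vps15LKO livers. C3 was called lower by 3 other fits, namely limma without a mean-variance trend (adjusted p = 0.025), limma voom (adjusted p = 0.041) and DESeq2 (adjusted p = 0.0021), and edgeR did not (adjusted p = 0.08).

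C4b, the source of the C4b fragment that anchors the classical and lectin convertase, was at 21885, 26398 and 25053 normalized counts in WT and at 14296, 15914 and 12666 in Vps15LKO livers. It was called lower (log2 fold change -0.78, limma adjusted p = 0.0028), with a log2 fold change of -0.05 under total-read scaling and a call in the other direction at 0.42 under quantile normalization. C2, the protease of the same convertase, was at 2404, 2265 and 2410 in WT and at 2051, 1950 and 1835 in Vps15LKO livers. It was called lower by a log2 fold change of -0.28 (limma adjusted p = 0.021), but was called higher at 0.45 under total-read scaling. C2 was not called under quantile normalization (0.17), under TMM scaling (-0.24), by edgeR (adjusted p = 0.059) or limma voom, without WT liver 1 or without Vps15LKO liver 3. C2 and Cfb lie 85 bases apart on chromosome 17 and share exons with the read-through gene Gm20547, which covers 42.8% of the exon bases of C2 and 79.5% of those of Cfb. Gm20547 held 97.4% to 98.4% of the summed count of C2 and Cfb in every liver, so the same reads may have entered more than 1 gene. C4b has the near-identical copy C4a, and how reads were split between them is not known.

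Among the genes of the lectin pathway 6 of 8 were called lower, 1 higher and 1 was not called. Mbl1 and Mbl2 encode the mannose-binding lectins. Mbl1 was at 2739, 2245 and 2916 normalized counts in WT and at 630, 1028 and 505 in Vps15LKO livers, 3.65-fold lower (limma adjusted p = 0.00013). Mbl2 was at 6640, 6047 and 5392 in WT and at 2389, 3595 and 1519 in Vps15LKO livers, 2.41-fold lower (limma adjusted p = 0.0021). Both were separated between the groups and were called lower under each scaling. Fcna, which encodes ficolin A, a lectin of liver and spleen macrophages, was at 899, 819 and 702 in WT and at 490, 576 and 249 in Vps15LKO livers. It was called lower (log2 fold change -0.96, limma adjusted p = 0.014), but not under total-read scaling (-0.23) nor without WT liver 1. The antisense gene Fcnaos held 42% to 46.3% of the Fcna count in every liver, so the caution on strand holds here too.

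The proteases of the pathway fell by unequal amounts. Masp2, whose product cleaves C4 and C2, was at 5874, 5701 and 5924 normalized counts in WT and at 1878, 2292 and 1542 in Vps15LKO livers, 3.06-fold lower. Masp1, which also gives MASP-3 by splicing, was at 5808, 6409 and 5869 in WT and at 3644, 3793 and 3257 in Vps15LKO livers, 1.69-fold lower, and it was not called under total-read scaling (log2 fold change -0.03) or quantile normalization (-0.10). The ratio of Masp1 to Masp2 was 0.989, 1.12 and 0.991 in WT and 1.94, 1.66 and 2.11 in Vps15LKO livers, a log2 difference of 0.87 without overlap (exact two-sided permutation p = 0.1). Masp2 shares 1817 exon bases with Tardbp on the other strand, which ranged from 2271 to 2603 normalized counts in the WT livers and from 1187 to 1414 in the Vps15LKO livers, and its reads could not be separated from those of Masp2 if strand was not used.

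Of the 3 collectins of the Colec family, Colec10 was called lower, Colec11 was called higher and Colec12 was not called, and Colec11 and Colec12 were not compared with each other. Colec10 encodes CL-L1, which pairs with CL-K1, the product of Colec11. Colec10 was at 703, 743 and 662 normalized counts in WT and at 380, 425 and 174 in Vps15LKO livers, and was called lower (2.15-fold, limma adjusted p = 0.0059) except under total-read scaling (log2 fold change -0.48). Colec11 was at 573, 567 and 565 in WT and at 724, 891 and 681 in Vps15LKO livers, 1.35-fold higher (limma adjusted p = 0.01). The ratio of Colec10 to Colec11 went from 1.23, 1.31 and 1.17 in WT to 0.525, 0.476 and 0.255 in Vps15LKO livers, a log2 difference of -1.62 and the largest between the paired members apart from those set against cell markers (exact two-sided permutation p = 0.1). Colec12, a scavenger receptor of the vessel wall, was at 1203, 1260 and 880 in WT and at 1307, 1185 and 1335 in Vps15LKO livers, which overlap, and it was not called (log2 fold change 0.21) except as higher under total-read scaling (0.94) and quantile normalization (0.49). Stellate cell markers, 7 of 8 called higher, had a sum of 6148 to 7146 in WT and 15114 to 15497 in Vps15LKO livers, whereas of 7 sinusoidal endothelial markers 5 were called lower and 2 higher, which became 0 and 4 under total-read scaling and 2 and 2 under quantile normalization. Their part in the Colec values was not tested.

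**Figure D3:**
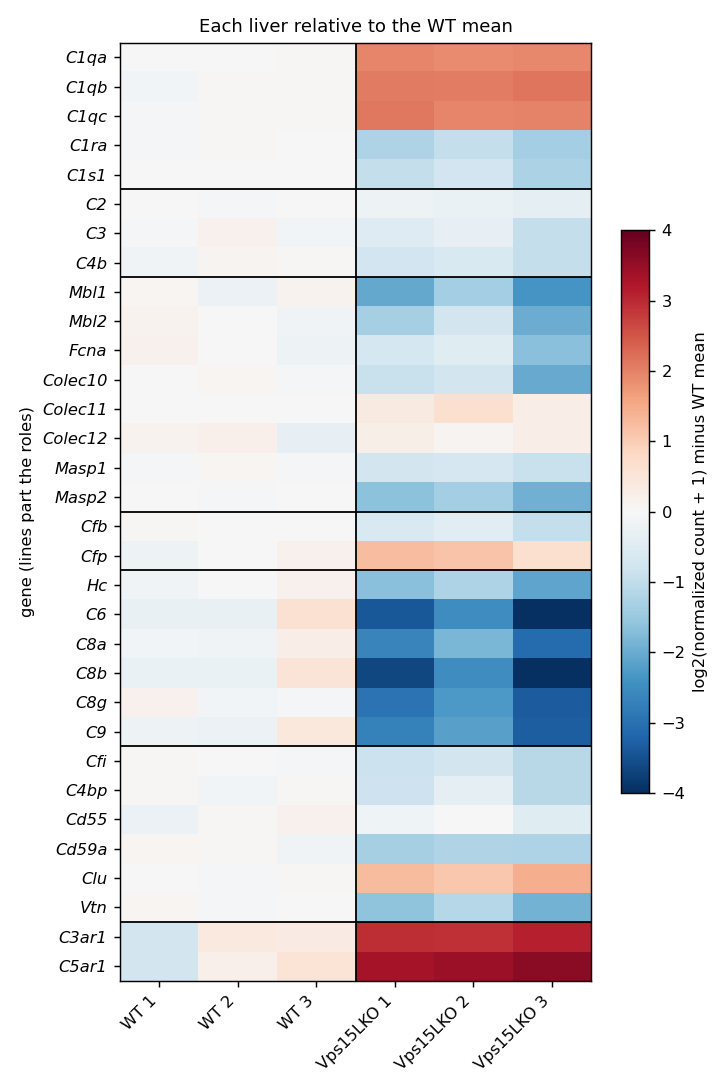
Log2(normalized count + 1) of each tested member in each of the 6 livers minus the mean of the WT livers, with blue for lower and red for higher values and lines between the roles. C6, C8a, C8b, C8g and C9 are the darkest blue rows, with Mbl1 next, and the receptors and C1q chains the darkest red, and Vps15LKO liver 3 is mostly the bluest and liver 2 the palest of the Vps15LKO livers in the rows called lower.

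Of the 6 regulators 4 were called lower, Clu was called higher and Cd55 was not called. Clu encodes clusterin, a chaperone that also keeps the C5b-9 complex out of membranes, and was at 39536, 37263 and 40502 normalized counts in WT and at 94194, 83302 and 107523 in Vps15LKO livers, 2.43-fold higher (limma adjusted p = 0.0018). Its share of reads was 0.165% to 0.186% in WT and 0.568% to 0.842% in Vps15LKO livers. Biliary markers moved alongside, with all 5 called higher, a sum of 168 to 193 normalized counts in WT against 1578 to 2502 in Vps15LKO livers, and Epcam, Sox9, Krt7 and Krt19 highest in Vps15LKO liver 3, as Clu was. Cldn4 was instead highest in Vps15LKO liver 1, at 606 against 554 and 574 in livers 2 and 3. It passed the filter through the Vps15LKO livers alone. Krt7 and Epcam did not reach 20 normalized counts in every WT liver, so their calls were also in part set by the filter. The part of biliary cells in the Clu counts was not tested. Vtn encodes vitronectin, which binds the same complex, and was at 65033, 60325 and 60775 in WT and at 20523, 28225 and 16665 in Vps15LKO livers, 2.85-fold lower (limma adjusted p = 0.00051). Vtn was not called under quantile normalization (log2 fold change -0.23), and no liver of 1 group reached the other for Clu or Vtn.

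Cfi encodes factor I, the protease that degrades C3b and C4b, and was at 12801, 12605 and 12143 normalized counts in WT and at 6922, 7576 and 5759 in Vps15LKO livers. C4bp, its cofactor for C4b, was at 10413, 9358 and 10452 in WT and at 5724, 7603 and 4696 in Vps15LKO livers. The log2 fold changes were -0.90 for Cfi and -0.77 for C4bp (limma adjusted p = 0.00042 and 0.0044), but neither was called under quantile normalization (0.09 and 0.15) or under total-read scaling (-0.17 and -0.05). Cd59a, a membrane protein that blocks C9, was at 1207, 1199 and 1050 in WT and at 454, 494 and 485 in Vps15LKO livers, 2.41-fold lower, a call kept under each scaling. Cd55, which speeds the decay of the convertases, was at 302, 371 and 403 in WT and at 314, 361 and 257 in Vps15LKO livers, which overlap. Cd55 was not called (log2 fold change -0.21) and was called higher at 0.51 under total-read scaling. Cd59a and Cd55 have the copies Cd59b and Cd55b, between which reads could have been split.

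The order of the members by level changed with genotype. Levels between genes were compared as mean normalized counts per kb of exon. In WT, C3 led with 39984, followed by Vtn with 30564, Clu with 11376 and Cfb with 7055. In Vps15LKO livers Clu led with 27642, followed by C3 with 26786, Vtn with 10741 and C1qb with 5435. C3 and Clu did not differ beyond the spread of the Vps15LKO livers, which ran from 20763 to 31758 for C3 and from 24237 to 31284 for Clu per kb. C1qb moved from rank 18 to rank 4 of the 33 genes, and C8b from rank 10 to rank 22. The 33 genes together made up 2.01% to 2.24% of the reads of a WT library and 2.41% to 2.6% of a Vps15LKO library, while their summed normalized counts were 475127 to 505898 against 307935 to 381205.

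Ratios of 2 genes within a liver are not changed by scaling with 1 factor for each library, and 15 pairs were compared. Quantile normalization shifts genes unequally and does change them. Under it C2 (log2 fold change 0.17) lay below Cfb (0.49) and C4b (0.42) above C3 (0.07), the reverse of the order in normalized counts. In 12 of them the WT and the Vps15LKO livers did not overlap, each with an exact two-sided permutation p = 0.1 that became 0.125 after adjustment over the 15 pairs, so none could pass a threshold of 0.05. Within the terminal pathway the C8a to C8b ratio went from 1.72, 1.68 and 1.32 in WT to 3.13, 2.42 and 3.4 in Vps15LKO livers. The log2 difference was -1.07 for Hc to C3 and 1.45 for Cd59a to C9, the blocker to its target. For C3 to Alb it was 0.89, with ratios that went from 0.0839, 0.107 and 0.0925 to 0.182, 0.169 and 0.172. Under quantile normalization the log2 fold changes of C3 (0.07) and Alb (-0.00) lay close together. The other log2 differences were -0.57 for Mbl1 to Mbl2, 0.38 for C2 to Cfb, -0.19 for C1ra to C1s1 and -0.17 for C1qa to C1qb. For C1qc to C1qb the livers overlapped, at 0.846 to 0.871 in WT and 0.767 to 0.878 in Vps15LKO livers (exact permutation p = 0.4). C4b to C3 and C8g to C8a overlapped too, with log2 differences of -0.18 and -0.34 (exact permutation p = 0.3 for each).

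**Figure D4:**
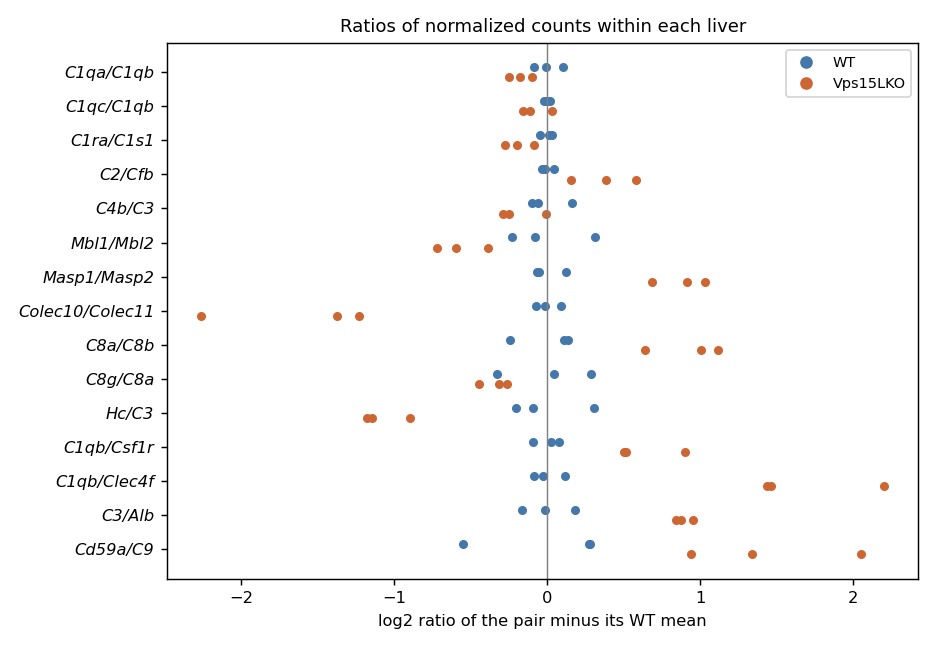
Log2 ratio of 15 gene pairs in each liver minus the mean of the WT livers for that pair, with WT in blue and Vps15LKO in orange. The Vps15LKO livers lie apart from WT in 12 pairs, farthest for Colec10 to Colec11 (-1.62) and C1qb to Clec4f (1.70), and among the WT livers in part for C1qc to C1qb, C4b to C3 and C8g to C8a.

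A further 30 genes of the pathway were listed by role, of which 26 were tested, 8 were called higher and 14 lower, with a median log2 fold change of -0.65 against -0.02 for all genes, of which 33.5% were called higher and 33% lower. Under total-read scaling 11 were called higher and 12 lower, against 66.7% and 11.1% of all genes. Cfhr2, Cfhr3 and Gm4788, genes of chromosome 1 that are near copies of one another, had log2 fold changes of -2.39, -2.75 and -2.53 and were called lower, and their reads may have been shared between them. Serping1, the C1 inhibitor, was at 30018, 28814 and 29004 in WT and at 12444, 14734 and 12065 in Vps15LKO livers, 2.24-fold lower, but its log2 fold change was 0.07 under quantile normalization.

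Susd4, an inhibitor of the C3 convertase, had the largest fall among these 26 genes, from 556, 561 and 609 normalized counts in WT to 20.6, 18.6 and 12.7 in Vps15LKO livers (log2 fold change -5.00, SE 0.19, limma adjusted p = 4.3e-07). Cpn1 and Cpn2, the subunits of the carboxypeptidase that inactivates C3a and C5a, had log2 fold changes of -1.14 and -1.84. Cd59b fell by 2.19 on the log2 scale, and C1rb and C1rl, relatives of C1ra, had log2 fold changes of -1.59 and -1.57. All of these were also called lower under total-read scaling. The genes called higher with a fitted fold of at least 2 were Itgax, Itgam and Itgb2, which encode the subunits of complement receptors 3 and 4, with log2 fold changes of 4.23, 2.51 and 2.38, Cr2 with 2.91 and Cd93 with 2.08. Cr2, at 2.65 to 8.74 normalized counts in WT, passed the filter through the Vps15LKO livers alone. Itgax was at 22.5, 18.7 and 14.8 in WT and at 347, 331 and 418 in Vps15LKO livers. Of the WT livers only liver 1 reached 20 normalized counts, so the call of Itgax, like that of Cr2, was in part set by the filter. Itgax is also on the list of recruited macrophage markers. Itgam shares 68.7% of its exon bases with the gene Gm49368, so its reads may belong to either.

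**Figure D5:**
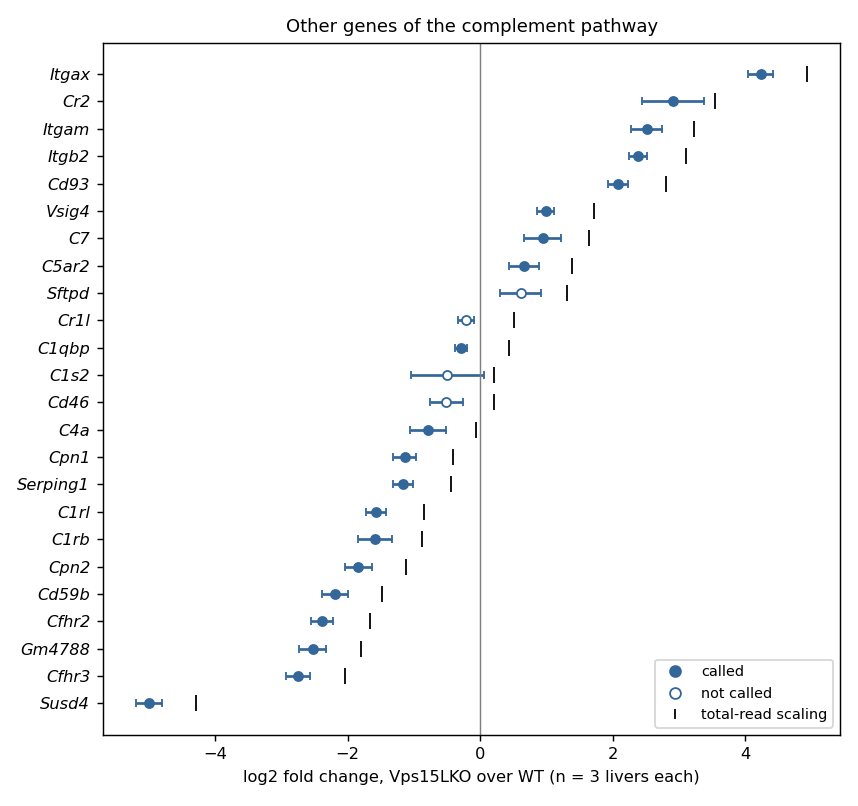
Log2 fold change of 24 of the 26 tested genes from the further list in Vps15LKO over WT liver, with points and bars for the limma estimate and its SE, open points for genes that were not called and black ticks for total-read scaling. The genes run from Susd4 at -5.00 to Itgax at 4.23, and the ticks of C1qbp, Cr1l, Cd46 and C1s2 lie on the other side of 0 from their points.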

How the data were processed

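Whole-liver RNA of 3 WT and 3 Vps15LKO mice was enriched for polyA and sequenced on DNBSEQ. According to the study's methods and the labels, the authors used HISAT2 for alignment to GRCm38, featureCounts (Subread) for counts per gene, and DESeq2 size factors to scale them. The kit digested the second strand, but how the counting treated strand and reads with several matches is not given in the sources used here. The deposited values are these normalized counts, a signal per gene rather than raw reads. Whole reads were recovered from their steps in 100% of values, within 0.01 of a read. Depth was 16137093 to 18110223 reads for each library, and counting error is the floor of each value's precision.

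Genes with at least 20 normalized counts in 3 of 6 livers were tested with limma 3.58.1 (R 4.3.3, mean-variance trend) on log2(normalized count + 1), so that fold changes of low genes are understated. Benjamini-Hochberg adjustment ran over all 15430 genes tested. Folds quoted as such are ratios of group means. Alternatives were other pseudocounts, filters, scalings and thresholds, count tests on the recovered reads (limma voom, DESeq2 1.42.0 and edgeR 4.0.16), each liver left out in turn, and a block on the replicate number. The scripts were tested on simulated data.

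Genes were annotated with GENCODE M21 on GRCm38, and promoters came from RefSeq. The members and all gene and marker lists were chosen with earlier results of these data known. All 33 members were named, and of the other complement genes those called with a fold of at least 2 together with Serping1 and C7, except for genes that are not reported here. Replicates are separate livers by their labels. The limma p-values use the spread between these livers, moderated towards a trend with level that was fitted over all genes tested. For the highest genes, such as Alb and C3, the limma SE therefore need not show the scatter of these livers. Same-numbered libraries are not tied by the labels, and no 2 libraries were copies of each other (chi-square per gene 14 to 36.4).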

Additional observations from a re-analysis of the deposited data

How the results depend on the processing

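The 8 higher members stayed between 7 and 11 and the 21 lower members between 19 and 22 under most alternatives, but 13 members were called lower under quantile normalization, under total-read scaling and at a fold of at least 2. The other complement genes called higher fell from 8 to 5 with 20 normalized counts required in all livers, and to 5 at a fold of at least 2. Leaving out 1 liver gave 8 members higher each time and 19 to 21 lower, and among the other complement genes 6 to 8 higher and 12 to 14 lower. Calls lost that way were C2 without WT liver 1 or Vps15LKO liver 3, Fcna without WT liver 1, C7 without Vps15LKO liver 3, C5ar2 without any 1 liver but WT liver 1, C4a without any 1 liver but WT liver 2 or Vps15LKO liver 2, and C1qbp without WT liver 1 or Vps15LKO liver 1.

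Directions turned under quantile normalization for C2 (log2 fold change 0.17), C3 (0.07), C4b (0.42), Cfb (0.49), Cfi (0.09), C4bp (0.15), Serping1 (0.07) and Sftpd (-0.06), and under total-read scaling for C2 (0.45), C3 (0.13), Cfb (0.07), Cd55 (0.51), C1qbp (0.43), Cr1l (0.51), Cd46 (0.2), C1s2 (0.21) and Pik3r4 (0.19). Of these C3, Cd55, Sftpd, Cr1l, Cd46 and C1s2 were not called in the first place. The cause was not tested. Pik3r4 ran from -0.61 to -0.45 when a liver was left out.

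Same-numbered WT and Vps15LKO livers did not deviate together (correlations -0.0099, -0.011 and 0.049), so the numbers were not taken to pair them. With a replicate block 8 members were called higher and 21 lower, other complement genes 8 and 14, Pik3r4 had a log2 fold change of -0.54, and of all genes 5065 were called higher and 4983 lower against 5163 and 5099 without it. On the recovered reads edgeR called 5383 of all genes higher and 4822 lower, and 8 members higher and 20 lower. Of all genes, the filter on 20 normalized counts in all livers left 3650 called higher and 4748 lower. With 3 livers a group no exact permutation test goes below 0.1, and Cfd and C5ar1 in WT rest on few reads.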

Other observations

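The Vps15LKO livers fell into a common order that was noticed after the values were seen. In 19 of the 21 members called lower, liver 2 was highest, liver 1 next and liver 3 lowest, all but C2 and Cd59a, which is 90.5% against 53% of the 5099 genes called lower over the whole table. The same order was present in 9 of 9 hepatocyte markers matched, and the C1q chains did not share it, with C1qb highest in liver 3.

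Some genes of the further list stayed below the filter but were detected mostly in Vps15LKO livers. Fcnb, the ficolin of myeloid cells, was at 0 in all 3 WT livers, which allows up to 3 reads in each, and at 2.29, 4.86 and 5.66 normalized counts in Vps15LKO livers. Csmd1, a membrane regulator, was at 2.65, 0 and 0 in WT and at 11.5, 13.8 and 30.4 in Vps15LKO livers. Neither was tested.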
